A study of Bos taurus with 12 samples.

Results

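The genes described here are transcription factors that set up and hold hepatocyte identity: HNF4A, FOXA1, FOXA2, FOXA3, ONECUT1, CEBPA, CEBPB, PROX1 and NR5A2. Of these 9, taken by symbol, 8 were matched through Entrez gene identifiers to a row among 30336 annotated bovine genes. CEBPB was not matched to a row and is not analysed here, and the 8 were measured in every library and passed the filter on low counts that left 13242 genes. Liver was taken by puncture biopsy from Holstein heifer calves at 4 d of age, and 12 RNA-seq libraries were labelled as 12 calves, 6 per maternal diet. Dams of CON calves received a basal close-up diet with no added Met. Dams of MET calves received the same diet plus ethyl cellulose rumen-protected Met (Mepron) for the last 28 d before calving, and calves of both groups were managed alike after birth. The comparison asks whether Met supply to the dam changed expression in the newborn liver.

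Hepatocyte identity is held by a network of DNA-binding proteins that bind each other's genes and the genes of secreted plasma proteins, gluconeogenesis, bile acid synthesis and nitrogen disposal. FOXA proteins are pioneer factors that open chromatin at liver enhancers. HNF4A, a nuclear receptor, keeps the differentiated program running, and ONECUT1 and PROX1 act early, when hepatoblasts expand and separate from the biliary lineage. CEBPA accompanies maturation and metabolic competence, while NR5A2, another nuclear receptor, regulates bile acid and cholesterol genes.

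Counted reads ranged from 8277789 to 10397604 per library, so that 3 reads corresponded to 0.289 to 0.362 CPM of the library total. Levels below are in CPM, reads scaled by library size and TMM factors. CON libraries 1 and 4 agreed almost within counting noise (chi-square per gene 1.31), as were MET libraries 1 and 3 (1.23), whereas the other 64 pairs of libraries lay between 23.5 and 124. Each of these pairs was summed and counted as 1 sample, leaving 5 samples per diet, and values for the 12 separate libraries stand beside the results they touch. Nothing in the sources used here says how these pairs of libraries arose. All CON libraries carried a different first index from all MET libraries, and any effect of the index cannot be told apart from diet. The 16 listed mature hepatocyte genes together made up 118200 to 191300 CPM, and the 4 skeletal muscle markers at most 0.224 CPM, with ACTA1 and CKM at 0 in every library. AFP, the fetal serum protein, had between 0 and 16 reads per library.

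HNF4A had the highest level per length of the 8 factors and did not pass the test between diets. It lies on chromosome 13, from 73547631 to 73577200 of the UMD 3.1.1 assembly, on the plus strand, with 4445 bases of annotated exon. In CON samples its level was 487 CPM in the summed libraries 1 and 4, 448 in sample 2, 360 in sample 3, 378 in sample 5 and 575 in sample 6. The MET samples read 424 CPM in the summed libraries 1 and 3, 338 in sample 2, 475 in sample 4, 403 in sample 5 and 418 in sample 6. MET values lay inside the CON range except for sample 2, which was the lowest of all. Means were 450 ± 87.0 CPM in CON and 412 ± 49.3 in MET (SD, n = 5 per diet). The log2 fold change, MET minus CON throughout, was -0.13 ± 0.16 (SE; adjusted p = 0.721, edgeR quasi-likelihood F-test), with a 95% interval from -0.47 to 0.21.

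The 3 FOXA paralogues, which share the forkhead DNA-binding domain, were present at very unequal levels, and none passed the test between the diets. FOXA3 (chromosome 18, 53834507 to 53841047, plus strand, 3319 exonic bases) carried most of the FOXA reads per length. Its share of the FOXA total per kilobase was 82.9% ± 4.26 in CON and 82.2% ± 5.31 in MET, and ran from 76.2% to 87.7% over the 10 samples. FOXA1 (chromosome 21, 48214179 to 48217962, minus strand, 1407 exonic bases) held 12.3% ± 2.62 and 12.2% ± 3.84 in CON and MET. FOXA2 (chromosome 13, 41845938 to 41861206, minus strand, 3667 exonic bases) held 4.83% ± 2.15 and 5.59% ± 2.76. The reads of FOXA1 and FOXA2 were nearly equal in number, so that their unequal shares come from the annotated lengths.

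FOXA3 in CON read 102 CPM in the summed libraries, 69.3 in sample 2, 55.9 in sample 3, 85.1 in sample 5 and 122 in sample 6. In MET it read 87.3 CPM in the summed libraries, 47.2 in sample 2, 126 in sample 4, 75.5 in sample 5 and 85.3 in sample 6. The lowest and the highest value were both MET samples, and the log2 fold change was -0.05 ± 0.26 (SE; adjusted p = 0.951). FOXA1 lay between 4.11 and 6.22 CPM in CON and between 3.61 and 7.60 in MET, with a log2 fold change of -0.05 ± 0.23 (adjusted p = 0.936). FOXA2 had between 27 and 72 reads per library. Its level lay between 2.80 and 7.50 CPM in CON and between 2.81 and 8.28 in MET, with a log2 fold change of 0.16 ± 0.32 (adjusted p = 0.837). The 95% intervals reached from -0.60 to 0.51 for FOXA3, from -0.55 to 0.45 for FOXA1 and from -0.53 to 0.85 for FOXA2. The signs for FOXA1 and FOXA3 turned when single samples were left out.

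CEBPA, a basic leucine zipper factor that restrains proliferation and drives gluconeogenic and urea cycle genes, was somewhat higher on average in MET, within the spread of the samples. It is a single-exon gene of 1231 bases on chromosome 18 (43928610 to 43929840, minus strand). CON samples read 20.5 CPM in the summed libraries, 26.4 in sample 2, 13.7 in sample 3, 28.1 in sample 5 and 24.7 in sample 6. MET samples read 27.1 CPM in the summed libraries, 22.1 in sample 2, 39.7 in sample 4, 29.9 in sample 5 and 15.1 in sample 6. MET samples 4 and 5 exceeded every CON sample, while MET sample 6 was among the lowest. The log2 fold change was 0.24 ± 0.25 (SE; adjusted p = 0.667; 95% interval from -0.30 to 0.78). It was 0.06 without MET sample 4 and 0.39 without MET sample 6 (adjusted p = 0.927 and 0.446).

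PROX1, a homeobox factor that acts in hepatoblast outgrowth and also represses NR5A2 and HNF4A activity, came nearest to a difference between diets. It lies on chromosome 16 (71408518 to 71468733, minus strand) with 8993 exonic bases, the longest of the 8. CON samples read 177 CPM in the summed libraries, 156.1 in sample 2, 156.5 in sample 3, 193 in sample 5 and 186 in sample 6. MET samples read 168 CPM in the summed libraries, 145 in sample 2, 134 in sample 4, 151 in sample 5 and 98.0 in sample 6. Thus 4 of 5 MET samples lay below every CON sample, and the summed MET libraries lay within the CON range. Means were 174 ± 16.8 CPM in CON and 139 ± 26.0 in MET (SD, n = 5 per diet). The log2 fold change was -0.32 ± 0.15 (SE), with an unadjusted p of 0.0511 and an adjusted p of 0.3075. An exact two-sided permutation test gave p = 0.0317 before adjustment and 0.277 after adjustment over all genes. PROX1 did not pass the threshold of 0.10, and its 95% interval ran from -0.64 to 0.0017. Over 22 other settings its adjusted p lay between 0.235 and 0.590. Removing from each sample its trend of log2 CPM, relative to the mean of all samples, on exonic length left -0.18. Leaving out MET sample 6 left -0.22.

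PROX1 also marks lymphatic endothelium. FLT4, a receptor of lymphatic vessels, averaged 39.2 ± 8.76 CPM in CON and 31.4 ± 10.9 in MET, and CCL21, a chemokine, 2.502 ± 0.893 and 2.23 ± 0.792 (SD, n = 5 per diet). PDPN had at most 1 read in any library. The summed level of these 3 lymphatic markers, nearly all of it FLT4, ran from 29.7 to 52.0 CPM in CON and from 19.1 to 46.8 CPM in MET. Their part in the PROX1 values was not tested. In bulk tissue, fewer cells of a type and less RNA per cell cannot be told apart.

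NR5A2, on chromosome 16 (80751217 to 80879974, plus strand, 6294 exonic bases), had nearly the same mean in both diets. CON samples read 28.3 CPM in the summed libraries, 30.8 in sample 2, 51.6 in sample 3, 39.7 in sample 5 and 37.3 in sample 6. MET samples read 32.8 CPM in the summed libraries, 36.4 in sample 2, 44.7 in sample 4, 37.6 in sample 5 and 39.1 in sample 6. All MET values lay inside the CON range. Means were 37.5 ± 9.14 CPM in CON and 38.1 ± 4.39 in MET (SD, n = 5 per diet), and the log2 fold change was 0.02 ± 0.16 (SE; adjusted p = 0.961; 95% interval from -0.33 to 0.37).

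ONECUT1, the cut-domain factor also known as HNF6, was the least abundant and the most variable member. It lies on chromosome 10 (57712108 to 57744837, plus strand, 1777 exonic bases) and had between 5 and 33 reads per library. CON samples read 2.35 CPM in the summed libraries, 0.628 in sample 2, 3.77 in sample 3, 1.87 in sample 5 and 1.56 in sample 6. MET samples read 1.03 CPM in the summed libraries, 0.683 in sample 2, 0.805 in sample 4, 2.68 in sample 5 and 0.824 in sample 6. MET sample 5 stood above the other MET samples, and CON sample 2 was the lowest of all. The log2 fold change was -0.79 ± 0.47 (SE; adjusted p = 0.427), with a 95% interval from -1.81 to 0.24. It was -1.26 without MET sample 5 (adjusted p = 0.267) and -0.47 without CON sample 3 (adjusted p = 0.703), so that these 2 samples moved it most.

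**Figure D1:**
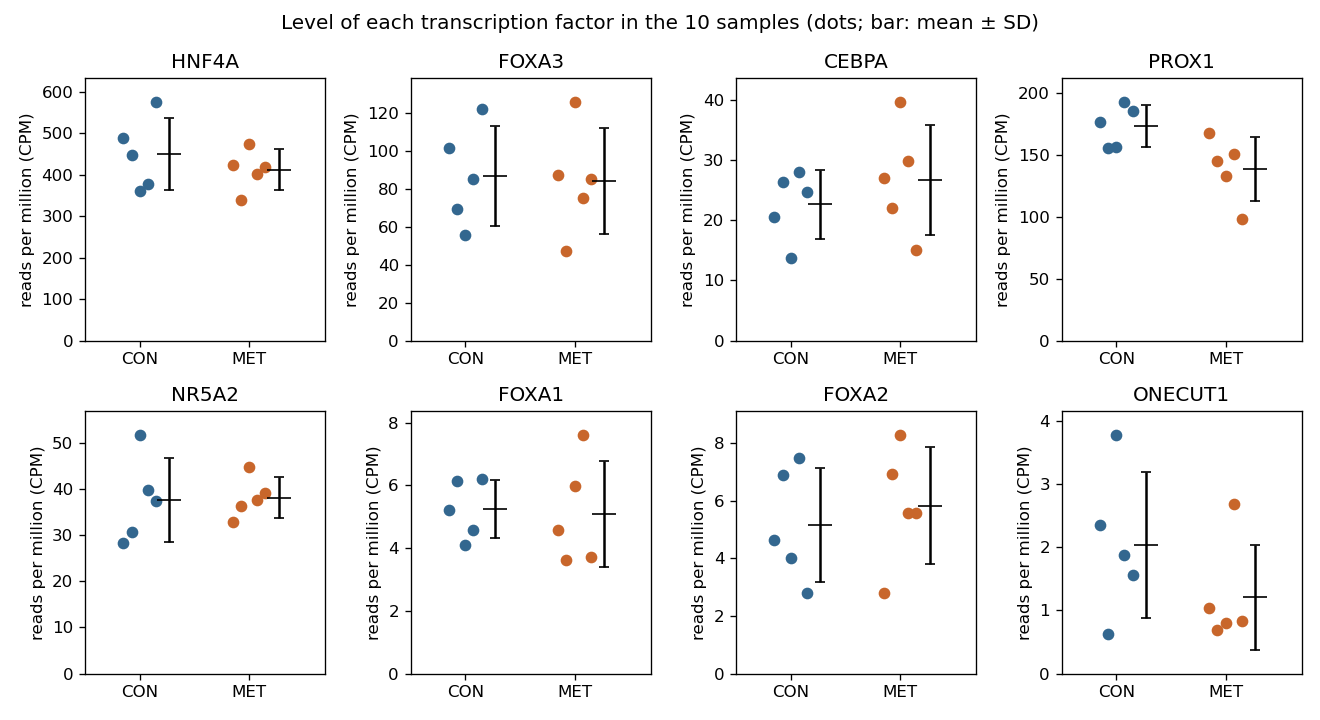
Level of each of the 8 transcription factors in CPM (vertical axes from 0) in the 5 CON (blue) and 5 MET (orange) samples, with the mean and SD beside the points. The diets overlap for every gene; for PROX1 the MET samples lie between 98.0 and 168 CPM and the CON samples between 156.1 and 193.

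Across the 8 factors, 0 passed an adjusted p of 0.10 in the 10 samples, against 0% of all 13242 genes tested, where the lowest adjusted p was 0.156. None reached an unadjusted p of 0.05, a level reached by 2165 genes (16.3%). In the exact permutation test 1 of 8 reached 0.05, against 15.2% of all genes. None had diets that did not overlap, against 3.72% of all genes. With the 12 libraries counted separately 583 genes (4.41%) passed, again without any of the 8, whose adjusted p lay between 0.25 and 0.932. DESeq2 passed 639 genes (4.83%) in the 10 samples, and none of these factors among them. It gave PROX1 an unadjusted p of 0.0375 and an adjusted p of 0.242, and gave no adjusted p for ONECUT1. The median log2 fold change of the 8 was -0.05, with 3 higher and 5 lower, and that of all genes was -0.0028.

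**Figure D2:**
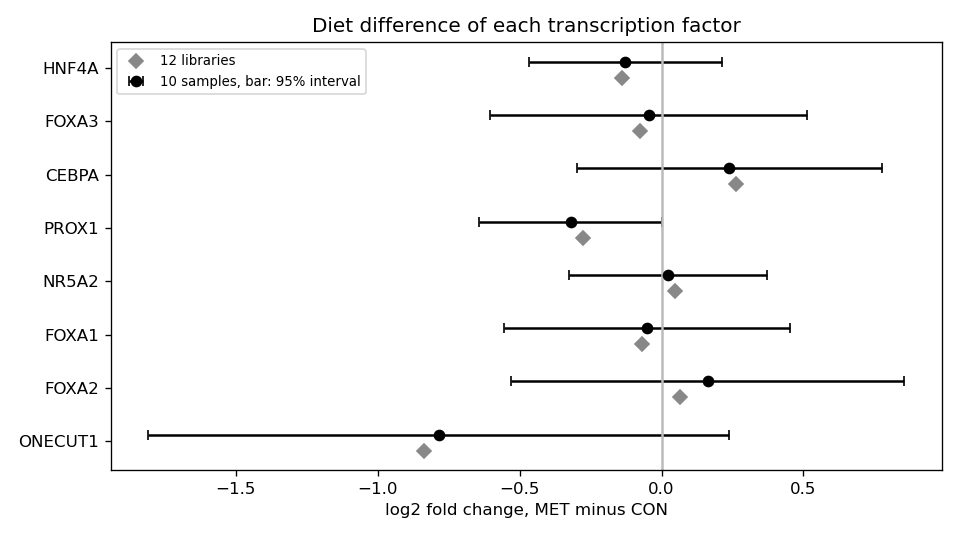
Log2 fold change of each factor, MET minus CON (horizontal axis), from 10 samples with its 95% interval (black) and from 12 libraries counted separately (grey diamonds). Every interval includes 0; that of PROX1 ends at 0.0017 and that of ONECUT1 is the widest, from -1.81 to 0.24.

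The spread between samples of a diet differed among the members. The coefficient of variation within a diet was 9.65% (CON) and 18.7% (MET) for PROX1 and 19.4% and 11.98% for HNF4A. It was 30.2% and 33.5% for FOXA3 and 56.8% and 69.4% for ONECUT1. Counting alone would give 1.53% for HNF4A, 3.56% for FOXA3 and 29.6% for ONECUT1, so that the spread of ONECUT1 was partly sampling of few reads. The biological coefficient of variation from the fit was 19.5% for PROX1, 19.5% for NR5A2 and 20.4% for HNF4A, below the median of 20.7% over all genes tested. The other 5 factors lay above that median, from 24.2% for FOXA1 to 46.3% for ONECUT1.

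Per kilobase of annotated exon, HNF4A stood first in all 10 samples, at 96.9 ± 15.7 CPM per kb (SD, n = 10), which placed it at rank 651 of the genes tested. FOXA3 followed at 25.8 ± 7.74 CPM per kb, then CEBPA at 20.1 ± 6.10 and PROX1 at 17.4 ± 3.06. NR5A2 held the 5th place in every sample at 6.01 ± 1.075 CPM per kb, and FOXA1 the 6th at 3.68 ± 0.918. FOXA2 at 1.5 ± 0.524 CPM per kb and ONECUT1 at 0.912 ± 0.589 came last, at ranks 10454 and 11547. Neighbours were compared by the log2 ratio within each sample, with exact two-sided sign-flip permutation tests adjusted over the 7 neighbouring pairs. HNF4A exceeded FOXA3 3.88-fold (log2 ratio 1.96 ± 0.28, SD), PROX1 exceeded NR5A2 2.89-fold (1.53 ± 0.42) and NR5A2 exceeded FOXA1 1.66-fold (0.73 ± 0.48). Each of these differences held in 10 of 10 samples (adjusted p = 0.00342, from the smallest p that 1024 sign flips can give, 0.00195). FOXA1 exceeded FOXA2 2.54-fold per kilobase (1.35 ± 0.67), but the numbers of reads were nearly the same, 573 and 579 over the 12 libraries. That difference, with the same adjusted p, therefore comes from the annotated exon lengths of 1407 and 3667 bases, and the order is not seen in the reads. FOXA3, CEBPA and PROX1 exchanged places among samples: FOXA3 was above CEBPA in 7 of 10 (log2 ratio 0.36 ± 0.47; adjusted p = 0.0656) and CEBPA above PROX1 in 7 of 10 (0.17 ± 0.46; adjusted p = 0.291). FOXA2 was above ONECUT1 in 7 of 10 samples (0.89 ± 1.23; adjusted p = 0.0684). The pairs of FOXA3 with CEBPA and of FOXA2 with ONECUT1 crossed 0.05 in other settings, at 0.0205 for FOXA3 over CEBPA in 12 libraries and at 0.0383 for FOXA2 over ONECUT1 without CON sample 3. These levels rest on the annotated exon lengths, and reads outside the annotated exons were not counted.

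**Figure D3:**
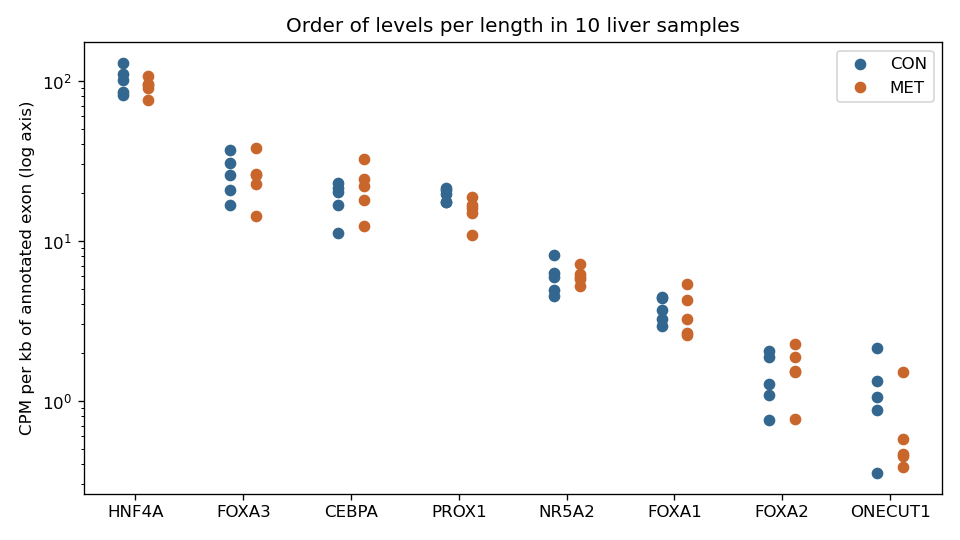
CPM per kilobase of annotated exon (log axis) for the 8 factors in the 5 CON and 5 MET samples, ordered by mean. HNF4A lies above all others, FOXA3, CEBPA and PROX1 share a band between 10.9 and 37.9, and FOXA2 and ONECUT1 lie lowest.

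Ratios within a sample need no scaling between libraries, and 3 were compared between the diets. The log2 ratio of PROX1 to NR5A2 reads was 2.24 ± 0.38 in CON and 1.85 ± 0.40 in MET (SD, n = 5 per diet), a difference of -0.38 (exact permutation p = 0.183, adjusted over the 3 ratios 0.548). CON samples ran from 1.599 to 2.64 and MET samples from 1.32 to 2.36. Leaving out single samples gave differences from -0.54 without CON sample 3 (exact permutation p = 0.0397, adjusted 0.119) to -0.25 without MET sample 6 (exact permutation p = 0.317, adjusted 0.746). The log2 ratio of FOXA1 to FOXA2 reads differed by -0.26 (exact permutation p = 0.563, adjusted 0.651), and that of FOXA3 to FOXA2 by -0.23 (exact permutation p = 0.651, adjusted 0.651). Within each diet the log2 ratio of FOXA3 to FOXA2 spread widely, from 3.32 to 5.42 in CON and from 2.76 to 4.95 in MET.

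Among the 7 relations of HNF4A with the other factors, only that with FOXA3 passed. Pearson's r of their log2 CPM over the 10 samples was 0.855 (permutation p = 0.00183, adjusted over 7 relations 0.0128), and Spearman's rho was 0.830 (permutation p = 0.0049, adjusted 0.0343). It was 0.734 without the 2 samples farthest from the median of HNF4A, and 0.870 after the diet means were removed. Without CON sample 3 the adjusted p was 0.0543, and without MET sample 2 it was 0.0823, with r at 0.828 and 0.795. Both genes were read in the same libraries, and r was 0.805 when libraries were scaled by their totals alone. FOXA1 gave r = 0.578 (permutation p = 0.0802, adjusted 0.281) and rho = 0.636 (permutation p = 0.0551, adjusted 0.193), with r = 0.358 without the 2 farthest samples. Its adjusted p was 0.0286 without MET sample 5, where r was 0.812. CEBPA and PROX1 gave r of 0.305 and 0.193, and ONECUT1, NR5A2 and FOXA2 gave -0.08, -0.34 and -0.37. The adjusted permutation p of r for these 5 lay between 0.550 and 0.825, and their rho between -0.394 and 0.224, with adjusted permutation p between 0.612 and 0.732.

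**Figure D4:**
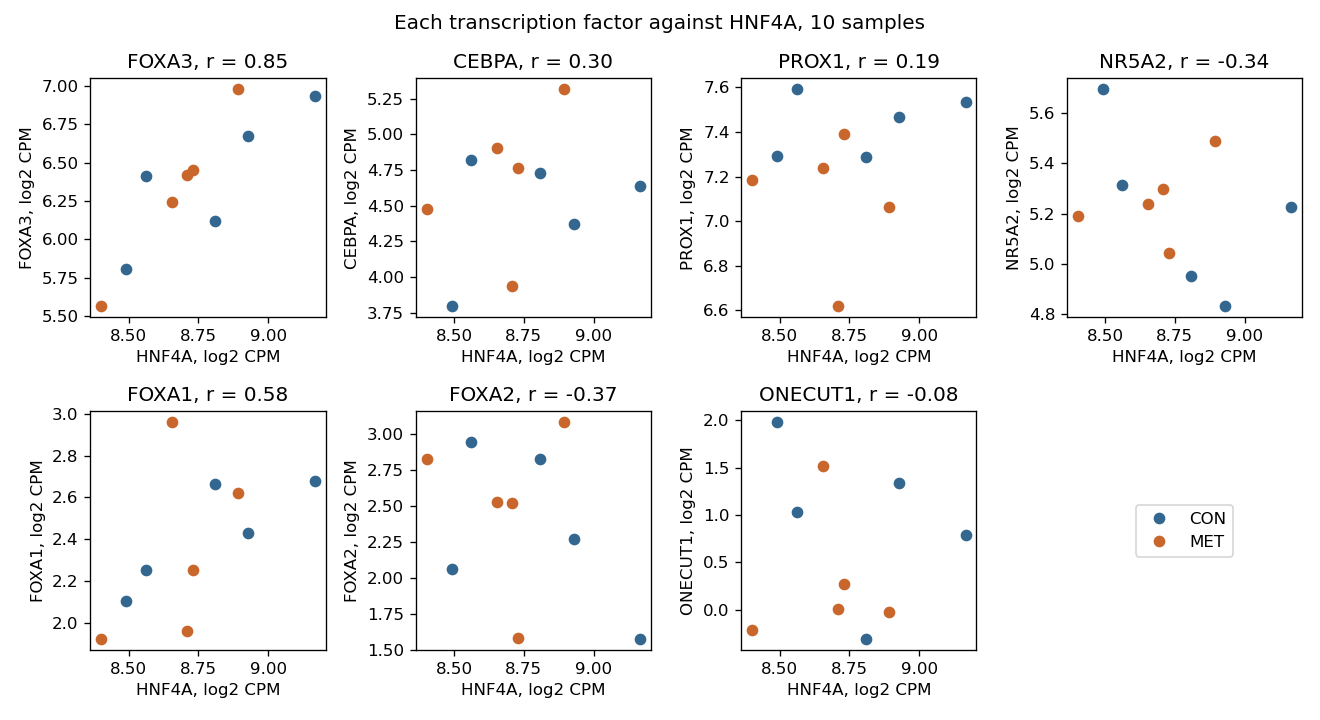
Log2 CPM of each other factor (vertical axes) against log2 CPM of HNF4A (horizontal axes) in 5 CON (blue) and 5 MET (orange) samples, with Pearson's r above each panel. FOXA3 rises with HNF4A in samples of both diets, at r = 0.85; the other panels show wider scatter.

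The genes whose log2 CPM was most like that of HNF4A over the 10 samples, outside the 8 factors, were BAIAP2L1 (r = 0.913), SNX33 (r = 0.898) and NUDT4 (r = 0.898). For CEBPA they were MGAT1 (r = 0.941), DNAJC5 (r = 0.929) and DIS3L2 (r = 0.905). They are the highest of all genes tested and are given without a test.

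Of 18 listed family members and partners, 17 were tested, and 0 passed with edgeR and 2 with DESeq2 (NR0B2 and DDIT3) in the 10 samples, against 4.83% of all genes with DESeq2. In this and the following lists, adjusted p are from edgeR unless DESeq2 is named. Where a named gene has no value for 12 libraries, its adjusted p there was also above 0.10. NR0B2 (SHP), an orphan receptor without a DNA-binding domain that represses HNF4A and NR5A2, averaged 15.8 ± 8.04 CPM in CON and 39.1 ± 11.3 in MET (SD, n = 5 per diet). The CON samples lay between 8.68 and 28.9 CPM and the MET samples between 30.2 and 57.3, so that the diets did not overlap, as in 3.72% of all genes. Its log2 fold change was 1.31 ± 0.30 (SE; adjusted p = 0.174, and 0.0452 in 12 libraries). DDIT3 (CHOP), a C/EBP relative that forms dimers with CEBPA and CEBPB, did not overlap either, with 15.8 to 20.3 CPM in CON and 23.1 to 30.3 in MET. Its log2 fold change was 0.55 ± 0.11 (adjusted p = 0.156, and 0.0452 in 12 libraries). HNF4G, the paralogue of HNF4A, averaged 22.2 ± 5.85 CPM in CON and 13.6 ± 7.54 in MET (log2 fold change -0.71 ± 0.30, adjusted p = 0.282). ATF5, a stress-related leucine zipper factor, had the highest level per kilobase of this list and a log2 fold change of -0.29 ± 0.29 (adjusted p = 0.666). The list's median log2 fold change was 0.03, with 9 genes higher and 8 lower.

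Genes known to be regulated by these factors were listed by factor, and many stand in more than 1 list. The lists were chosen with earlier results of these data known, so the all-gene shares beside their counts do not test the lists. Of 17 HNF4A target genes, 0 passed with edgeR and 3 with DESeq2 (APOB, F9 and PCK1, all lower in MET), against 4.83% of all genes. At an unadjusted p of 0.05 they made up 17.6% of the list, against 16.3% of all genes. In all, 13 were lower in MET and 4 higher, and the median log2 fold change was -0.25. PCK1, the gluconeogenic enzyme, was at 554 ± 194 CPM in CON and 301 ± 59.5 in MET (log2 fold change -0.88 ± 0.23, adjusted p = 0.175, and 0.057 in 12 libraries). APOB, the structural protein of VLDL, was at 1248 ± 91.4 and 943 ± 84.1 CPM without overlap of the diets (-0.41 ± 0.13, adjusted p = 0.189, and 0.0859 in 12 libraries). F9, a clotting factor, was at 777 ± 61.7 and 604 ± 67.7 CPM, also without overlap (-0.37 ± 0.13, adjusted p = 0.217, and 0.104 in 12 libraries), and TF, the iron carrier, had the highest level per kilobase of the list (-0.33 ± 0.21, adjusted p = 0.469).

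All 9 FOXA target genes tested were lower in MET on average, with a median of -0.59. With edgeR 0 passed, and with DESeq2 5 of 9 (ALB, TAT, PCK1, IGFBP1 and SLC2A2), against 4.83% of all genes. In 12 libraries 2 of 9 passed (PCK1 and IGFBP1), against 4.41% of all genes. At an unadjusted p of 0.05, 5 of these 9 were lower (55.6%, against 8.52% of all genes), in a list chosen with earlier results of these data known. IGFBP1, which binds insulin-like growth factors and is repressed by insulin, ranged from 101 to 683 CPM in CON and from 1.76 to 121 in MET (log2 fold change -2.46 ± 0.78, adjusted p = 0.192, and 0.0766 in 12 libraries). SLC2A2, the hepatocyte glucose transporter, was at 380 ± 128 CPM in CON and 209 ± 81.7 in MET (-0.86 ± 0.28, adjusted p = 0.195, and 0.123 in 12 libraries). ALB, albumin, had the highest level per kilobase and gave -0.66 ± 0.25 (adjusted p = 0.238, and 0.107 in 12 libraries). Of 8 CEBPA targets, 7 were lower, with a median of -0.45. The same 4 genes, PCK1, ALB, GYS2 and TAT, reached an unadjusted 0.05 with edgeR and passed with DESeq2, while 0 passed with edgeR. Of all genes, 8.52% reached that unadjusted p and were lower, and 4.83% passed with DESeq2. PCK1, ALB and TAT also stand in the FOXA list. GYS2, liver glycogen synthase, gave -0.48 ± 0.15 (adjusted p = 0.185, and 0.0812 in 12 libraries), and TAT, tyrosine aminotransferase, -0.59 ± 0.19 (adjusted p = 0.197, and 0.148 in 12 libraries).

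Of 10 NR5A2 targets 9 were tested, 5 lower and 4 higher, with a median of -0.17. With edgeR 0 passed, and with DESeq2 1 of 9, NR0B2, against 4.83% of all genes. CYP8B1, the sterol hydroxylase that sets cholic acid output, was at 114 ± 31.0 and 80.5 ± 25.1 CPM (-0.49 ± 0.26, adjusted p = 0.357), and SLC10A1, the bile acid importer, gave -0.51 ± 0.27 (adjusted p = 0.375). APOA1 had the highest level per kilobase of the list (-0.25 ± 0.29, adjusted p = 0.705). The 3 ONECUT1 targets tested, TTR, PFKFB1 and G6PC (G6PC1 in the current annotation), gave -0.02 ± 0.27, 0.18 ± 0.18 and -0.37 ± 0.34, with adjusted p of 0.977, 0.658 and 0.610.

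The acute-phase genes regulated through CEBPB stood the other way on average, with 9 of 10 higher in MET and a median of 0.22. Of them, 0 passed the threshold with either edgeR or DESeq2. Of the 9, FGA, FGB and FGG turned to -0.14, -0.15 and -0.099 without MET sample 5, and ORM1 to -0.12 without MET sample 4. HP, haptoglobin, ranged from 2652 to 10930 CPM in CON and from 1603 to 49740 in MET (1.31 ± 0.78, adjusted p = 0.423), and its log2 fold change was 0.51 without MET sample 5. LBP, which binds bacterial lipopolysaccharide, gave 1.082 ± 0.50 (adjusted p = 0.304) and 0.66 without MET sample 4. CRP gave -0.39 ± 0.25 (adjusted p = 0.466) and ORM1 0.10 ± 0.26 (adjusted p = 0.888). Granulocyte markers, 4 tested of 5 listed, summed to between 13.6 and 48.8 CPM in CON and between 17.1 and 147 in MET, all 4 with higher means in MET and 0 past the threshold, and their part in the acute-phase values was not tested. The largest of them, S100A12, gave 1.40 ± 0.52 (adjusted p = 0.234), S100A9 1.26 ± 0.65 (adjusted p = 0.354) and S100A8 1.17 ± 0.66 (adjusted p = 0.398). Without MET sample 4 these 3 gave 0.80, 0.26 and 0.27.

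With edgeR in the 10 samples, no gene of the maturation lists passed. With DESeq2, 1 fetal gene (DLK1, higher in MET) and 5 of the mature hepatocyte genes (all lower, ALB, APOB, TAT and HPD among them) passed, of 6 and 16 tested and against 4.83% of all genes. Of 9 fetal liver genes, 6 were tested, 3 higher and 3 lower. DLK1, a hepatoblast surface protein, was at 10.5 to 13.1 CPM in CON and at 16.9 to 114 CPM in MET, without overlap (1.71 ± 0.49, adjusted p = 0.180, and 0.0855 in 12 libraries). Without MET sample 5, the highest, its log2 fold change was 0.80 (adjusted p = 0.246). GPC3 gave -0.54 ± 0.25 (adjusted p = 0.305), IGF2BP1 0.32 ± 0.17 (adjusted p = 0.374) and H19, the most abundant per kilobase, -0.10 ± 0.44 (adjusted p = 0.935). Of 16 mature hepatocyte genes, 13 were lower and 3 higher, with a median of -0.35. Counted once each, the target and mature hepatocyte lists without the acute-phase list held 38 genes, 26 lower and 12 higher in MET with a median of -0.25. At an unadjusted p of 0.05, 10 were lower and 1 higher, against 8.52% and 7.83% of all genes, and 6 passed in 12 libraries, APOB, PCK1, IGFBP1, GYS2 and NR0B2 among them, against 4.41% of all genes. These lists were chosen with earlier results of these data known, so these shares do not test the lists.

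**Figure D5:**
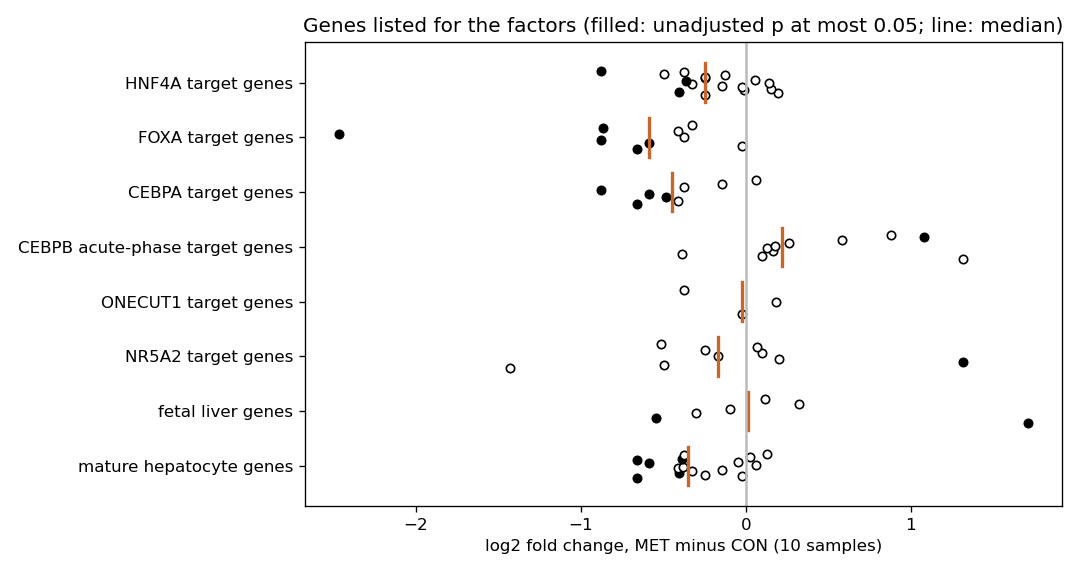
Log2 fold change, MET minus CON (horizontal axis), of each tested gene in 8 lists of genes regulated by the factors or tied to liver maturation; filled points have an unadjusted p of at most 0.05 and the orange line is the list's median. The FOXA list lies wholly below 0, with a median of -0.59, while 9 of 10 acute-phase genes lie above 0. Of those 9, FGA, FGB and FGG fall below 0 without MET sample 5, and ORM1 without MET sample 4.

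Markers of other liver cells accompanied these values. Cholangiocyte markers summed to between 61.7 and 102 CPM in CON and between 41.1 and 82.4 in MET, with all 5 tested genes lower on average. Of these, CFTR gave -0.54 ± 0.18 (adjusted p = 0.195, and 0.0889 in 12 libraries), SPP1 -0.61 ± 0.30 (adjusted p = 0.343) and EPCAM -0.41 ± 0.28 (adjusted p = 0.488). Stellate cell and fibroblast markers summed to between 609 and 898 CPM in CON and between 450.0 and 747 in MET, and all 7 were lower on average, with a log2 fold change of -0.37 ± 0.22 for COL3A1 (adjusted p = 0.419). Endothelial markers ranged from 331 to 502 CPM in CON and from 288 to 478 in MET, 3 higher and 4 lower. Macrophage markers ranged from 721 to 1017 CPM in CON and from 827 to 1192 in MET, with all 6 higher on average and a log2 fold change of 0.34 ± 0.13 for CD68 (adjusted p = 0.239). Lymphocyte markers lay between 15.4 and 25.8 CPM in CON and between 16.7 and 29.6 in MET, with all 4 tested genes higher on average and a median log2 fold change of 0.48. Erythroid markers, mostly HBB, varied from 7.55 to 959 CPM in CON and from 56.9 to 459 in MET, and both tested genes were lower on average. The log2 fold changes were -1.07 for HBB and -0.43 for ALAS2. They were -0.30 and 0.014 without CON sample 2, and -1.81 and -1.44 without the summed MET libraries 1 and 3. None of these marker genes passed the threshold in the 10 samples with edgeR or DESeq2, and their part in the values of the 8 factors and their targets was not tested.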

How the data were processed

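Puncture biopsies of liver were sequenced from 1 end on an Illumina HiSeq instrument after a stranded mRNA preparation. The authors aligned reads with STAR 2.5.3a and deposited whole-number counts per gene made with featureCounts (Subread 1.5.2, per the file headers), strand-aware, over RefSeq exons of UMD 3.1.1, each read assigned to at most 1 gene. The 9 symbols were matched through the bovine RefSeq gene table. CEBPB and a 10th gene of the original selection are not analysed here. The members and gene lists were chosen with earlier results of these data known. From each list, the 3 genes with the smallest unadjusted p and the gene with the most reads per kilobase were named, with the 3 genes most correlated with HNF4A and with CEBPA, and not all of these are reported here. Genes named beyond that rule were chosen after their values were seen.

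Libraries that differed by little more than counting noise were summed. Counts were tested in edgeR 4.0.16 (R 4.3.3) with TMM factors, edgeR's default filter (minimum count 10), the quasi-likelihood F-test and Benjamini-Hochberg adjustment over all genes at 0.10. The same test with 12 libraries follows the design of the study. The SE is the fold change over the root of F, and its 95% interval uses the same degrees of freedom. Log2 CPM used a prior count of 2, and ratios had 0.5 added to each count. Exact permutation tests (252 arrangements, smallest p 0.00794) and correlation tests (100000 permutations) were two-sided and run in Python 3.11.15 with scipy 1.17.1. Alternatives used DESeq2 1.42.0, limma 3.58.1 voom and other scalings. On simulated counts for 13242 genes in this comparison, the edgeR test recovered 79 of 100 genes changed 2-fold and 93 of 100 changed 3-fold, with 10 false calls, and DESeq2 83 and 94 with 40 false calls. Smaller changes, correlation between genes and samples that stand apart were not simulated. The rates are over randomly chosen genes, and were not computed for low-count factors such as ONECUT1 and FOXA2. The 95% intervals include the spread between samples, and the 3-read limit covers counting error only.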

Additional observations from a re-analysis of the deposited data

Results flagged for a closer look

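ONECUT1 in MET sample 5 stood apart from the other 4 MET samples, at 2.68 CPM (24 reads) against 0.683 to 1.03 CPM. The gap to the next sample was 0.827 of the range over the 5 samples. Of 22 groups of 5 values checked (8 factors and 3 ratios in each diet) this was the only such case, and chance gives about 1 in 20.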

How the results depend on the processing

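None of the 8 factors passed an adjusted p of 0.10 in any of 22 alternative fits, which included a fit with both summed pairs left out, chosen after seeing the data. The number of all genes passing was 0 in the 10 samples, 583 in 12 separate libraries and 639 with DESeq2, and between 0 and 39 when single samples were left out, with 39 only without the summed MET libraries 1 and 3. With the replicate number as a block over 12 libraries it was 6. The numbers do not pair the samples, since same-numbered libraries correlated at -0.19 to 0.148, and the block changed no call among the factors. The remaining scalings and filters gave 0 genes. HNF4A, PROX1 and ONECUT1 kept a negative and CEBPA and FOXA2 a positive log2 fold change in all 22, although leaving out single samples moved HNF4A between -0.20 (without CON sample 3) and -0.023 (without CON sample 6), and FOXA2 between 0.0026 (without MET sample 4; 0.0079 without CON sample 6) and 0.35 (without the summed MET libraries). The sign turned for NR5A2 with upper-quartile factors (-0.0019), for FOXA3 with a length trend removed (0.0032), and for both with the summed pairs left out (-0.015 for NR5A2 and 0.0044 for FOXA3). Leaving out single samples gave ranges of 0.058 to 0.39 for CEBPA, -0.24 to 0.051 for FOXA1, -0.23 to 0.11 for FOXA3 and -0.065 to 0.16 for NR5A2. For the diet difference of log2 ratios it gave -0.48 to 0.000078 for FOXA1 to FOXA2 and -0.51 to 0.098 for FOXA3 to FOXA2. The members correlated with HNF4A then numbered 0 to 2, and r ranged from -0.34 to 0.19 for ONECUT1, -0.54 to 0.0001028 for FOXA2 and -0.049 to 0.34 for PROX1. Of the 106 tested genes in the lists of partners, targets and markers, 80 moved over 1.5 times or changed sign when some single sample was left out. Of these, 32 changed sign, among them TTR, H19, ORM1, FGA, FGB and FGG. The cause of these changes was not tested. ONECUT1, FOXA1 and FOXA2 had 5 to 72 reads per library, and counting alone would give coefficients of variation of 29.6%, 14.1% and 13.9%. Those seen in CON and MET were 56.8% and 69.4% for ONECUT1, 17.8% and 33.2% for FOXA1, and 38.3% and 34.8% for FOXA2. The biological coefficients from the fit, which leave counting out, were 46.3%, 24.2% and 34.2%.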
